A study of Mus musculus with 16 samples.

Results

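Germ-free (GF) mice that had received the microbiota of constipated donors were compared with GF mice left without microbes, in RNA from tissue given as smooth muscle of the proximal colon. The recipients (label C/+Lop, 4 arrays) had been gavaged with cecal contents of specific pathogen-free (SPF) mice in which constipation had been induced pharmacologically (PIC) with loperamide, an opioid that slows the gut. Both groups were chosen by their labels alone, and together they hold 8 of the 16 arrays of the series. The other 8 arrays, 4 of recipients of microbiota from untreated donors (C/-Lop) and 4 of SPF mice, are used for the fit and for values side by side. All mice were wild type C57Bl/6. The donors were 8 to 10 weeks old and drank 0.1% loperamide for 7 days, and the GF mice were matched to them in age. The recipients were killed 4 weeks after colonization and had no loperamide themselves. The age listed for them is 8 to 10 weeks, the same as for the GF mice. If that was their age at colonization, they may have been older than the GF mice when killed. Age could then not be told apart from colonization, and its part in the differences below was not tested. How many donors, litters or cages stood behind the 4 arrays of a group is not given in the sources used here, and the accounts of the recipients' age differ between parts of the study's text.

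The gut of a GF mouse has never met living microbes. Its mucosa holds few antibody-secreting plasma cells, which fill their endoplasmic reticulum (ER) with immunoglobulin on the way to secretion. Colonization is known to bring plasma cells into the mucosa, to induce antimicrobial proteins in the epithelium, and to change how the epithelium takes up and handles nutrients. The muscle coat beneath it contracts under the control of enteric neurons and of the interstitial cells of Cajal, its pacemakers, and holds resident macrophages.

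RNA was hybridized to Illumina mouse BeadChips, on which each of 25697 probes is read as the mean fluorescence of many beads (a median of 37 to 39 per array). Values below are log2 intensities after normalization, each group has 4 arrays, differences are C/+Lop minus GF, and adjusted p-values come from 1 limma fit over all 16 arrays with Benjamini-Hochberg adjustment over 14102 probes. At a detection p under 0.05, a GF array detected 12364 to 13238 probes and a C/+Lop array 12717 to 13508. Whether the 4 arrays of a group came from 4 animals is not in the labels, so the spread that the p-values rest on may be partly technical. Xist, the transcript of the inactive X chromosome, was 6.85 and 7.01 on C/+Lop replicates 2 and 3 and under 5 on the other C/+Lop arrays and on all GF arrays, so that the C/+Lop arrays hold both sexes and the GF arrays do not show a female. Eif2s3y, on the Y chromosome, was 4.45 and 4.42 on the same replicates, 7.41 and 8.14 on C/+Lop replicates 1 and 4, and 8.21 to 8.47 on GF arrays. Muscle was present on every array (mean log2 intensity of 21 contractile genes 10.54 to 11.27 on GF and 10.75 to 10.81 on C/+Lop arrays), and so was epithelium (19 genes, 11.36 to 11.69 and 11.25 to 11.55), so that the samples held mucosa as well. GF replicate 2 was low in transcripts of enteric neurons (6.32, against 7.30 to 7.51 on the other GF arrays). C/+Lop replicate 4 was high in interferon-induced transcripts (8.78, against 7.12 to 7.39 on the other C/+Lop arrays). C/-Lop replicate 4 was high in them as well (9.29, against 7.20 to 7.35 on the other C/-Lop arrays). Because bulk RNA was measured, fewer cells of a type and less RNA per cell cannot be told apart in any result below.

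Of 9862 named genes, each represented by its brightest probe, 328 were higher in recipients of PIC microbiota (3.33%) and 381 lower (3.86%) at an adjusted p under 0.05, and on 1719 (17.4%) the 4 arrays of one group all lay on the same side of the other 4. The median difference over all genes was -0.01. At these shares most of the lists below would hold few calls or none, so that few or no calls do not set a list apart. By probe, limma called 1000 of 14102, 487 higher and 513 lower, and median scaling, which does not make the distributions equal and moved the median of all probes by -0.07, gave 143 higher and 683 lower. The largest differences upward belonged to Mzb1 and other genes of plasma cells, to secreted defence proteins and to ER chaperones, and those downward to Apoa1 and other genes of nutrient uptake, to xenobiotic enzymes and to immediate early genes. Of the genes of the contractile apparatus, muscarinic and calcium signalling, enteric neurons and pacemaker cells, which the study's question of colonic motility turns on, 3 passed (Chgb, Atp2b1 and Rock1). The plot of all probes shows both sides.

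**Figure D1:**
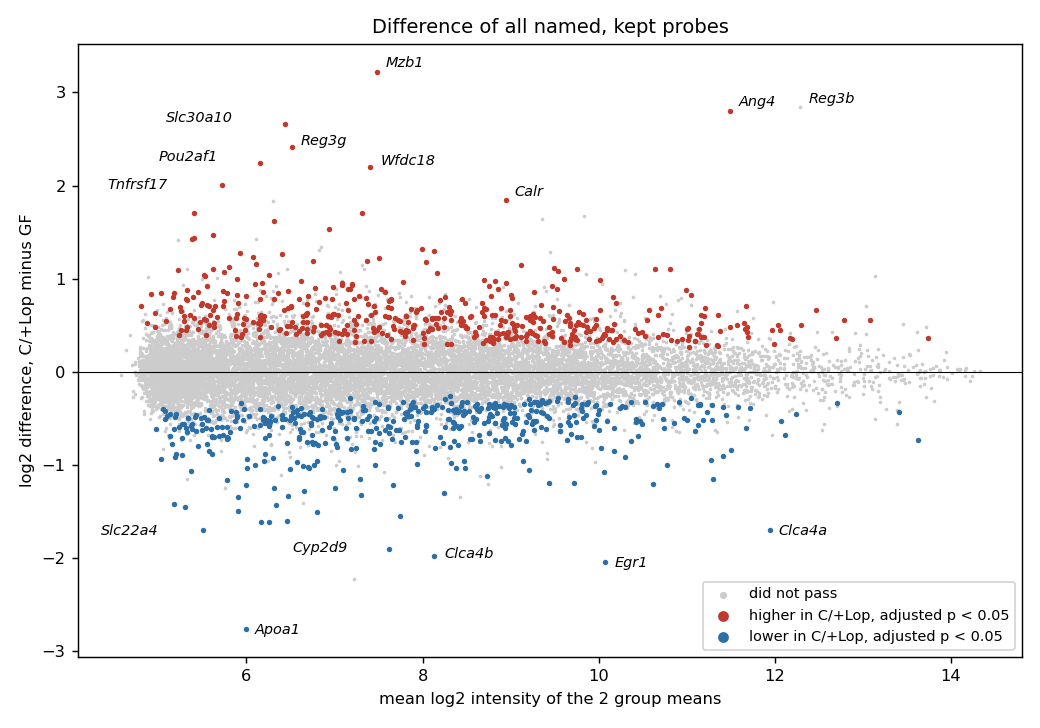
Each point is 1 kept, named probe, with the mean of both group means (log2 intensity) on the horizontal axis and the log2 difference, C/+Lop minus GF, on the vertical axis; red and blue points had an adjusted p under 0.05 (limma). Mzb1 lies highest, at 3.22, and Apoa1, which no C/+Lop array detected and which is drawn at its measured value, lowest.

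Several plasma cell genes rose. Mzb1, a chaperone that antibody-secreting cells use to assemble immunoglobulin, was 5.82, 5.81, 6.01 and 5.84 on GF replicates 1 to 4 and 8.96, 8.53, 9.24 and 9.65 on C/+Lop replicates 1 to 4. Every C/+Lop array thus lay more than 2 log2 units above every GF array, and the difference of 3.22 (SE 0.32, 9.33-fold) was the largest upward of any named gene (adjusted p = 0.000159). Pou2af1, the B cell coactivator also called OCA-B, was 5.35, 4.79, 5.15 and 4.83 on GF arrays and 7.41, 6.84, 7.40 and 7.45 on C/+Lop arrays (difference 2.24, SE 0.24, adjusted p = 0.000159). Tnfrsf17, which encodes BCMA, the survival receptor of plasma cells, was undetected on all GF arrays (4.63 to 4.79) and lay between 6.44 and 7.01 on C/+Lop arrays, at least 3.01-fold higher (adjusted p = 0.000708). Such a bound sets each array without detection at the lowest signal of a detected probe on it, or at its own value if that is higher. It is given where no array of a group detected the probe, except for Hspa5, Xist and Chrm2, which no GF array detected. The differences of these 3 genes and all others are as measured. Hyou1, Fcrla and Cd79a were detected on 1 of the GF arrays, Pou2af1, Muc1, H2-Ob, Upk3b and Etv1 on 2, and Bhlha15, Reg3g, Cd69, Cd3g, Ceacam10 and Ache on 3, and of the C/+Lop arrays 3 detected Anxa8, Rab33a, Fosb, Cyp3a25, Hspa5 and Cd79a, and 2 Ache and Ffar3. Irf4, a transcription factor required for plasma cells, was likewise below background on all GF arrays and at least 1.93-fold higher (5.58 to 6.33 on C/+Lop arrays, adjusted p = 0.00273). Prg2, the major basic protein of eosinophils, which is not on the list, followed the same pattern, from 4.55 to 4.83 without detection on GF arrays to 5.89 to 6.30, at least 1.98-fold higher (adjusted p = 0.000159).

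Of 16 measured genes of plasma and B cells, 8 rose and none fell, against a background of 3.33% higher, and the median difference was 0.53. Besides those named, Xbp1, the transcription factor of secretory cells, rose by 0.50 (SE 0.10), Fcrla, an Fc receptor-like protein of B cells, by 1.04 (SE 0.21), Edem2, which works in the degradation of misfolded ER proteins, by 0.37 and H2-Ob, an MHC class II chaperone chain of B cells, by 0.60. The B cell receptor chains Cd79a and Cd79b had differences of 0.56 and 0.77 that did not pass (adjusted p = 0.103 and 0.0844), and the plasma cell proteoglycan Sdc1 one of 0.00. The mean level of the list was 6.64 to 6.82 on GF and 7.25 to 7.71 on C/+Lop arrays, which did not overlap. The call of Edem2 ended without GF replicate 3 or C/+Lop replicate 1 or 3 (adjusted p = 0.0522 to 0.0581) and that of H2-Ob without GF replicate 1 or 2 or C/+Lop replicate 1, 2 or 3 (0.0791 to 0.0984). Without the Xist-positive C/+Lop arrays 4 genes of the list passed.

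**Figure D2:**
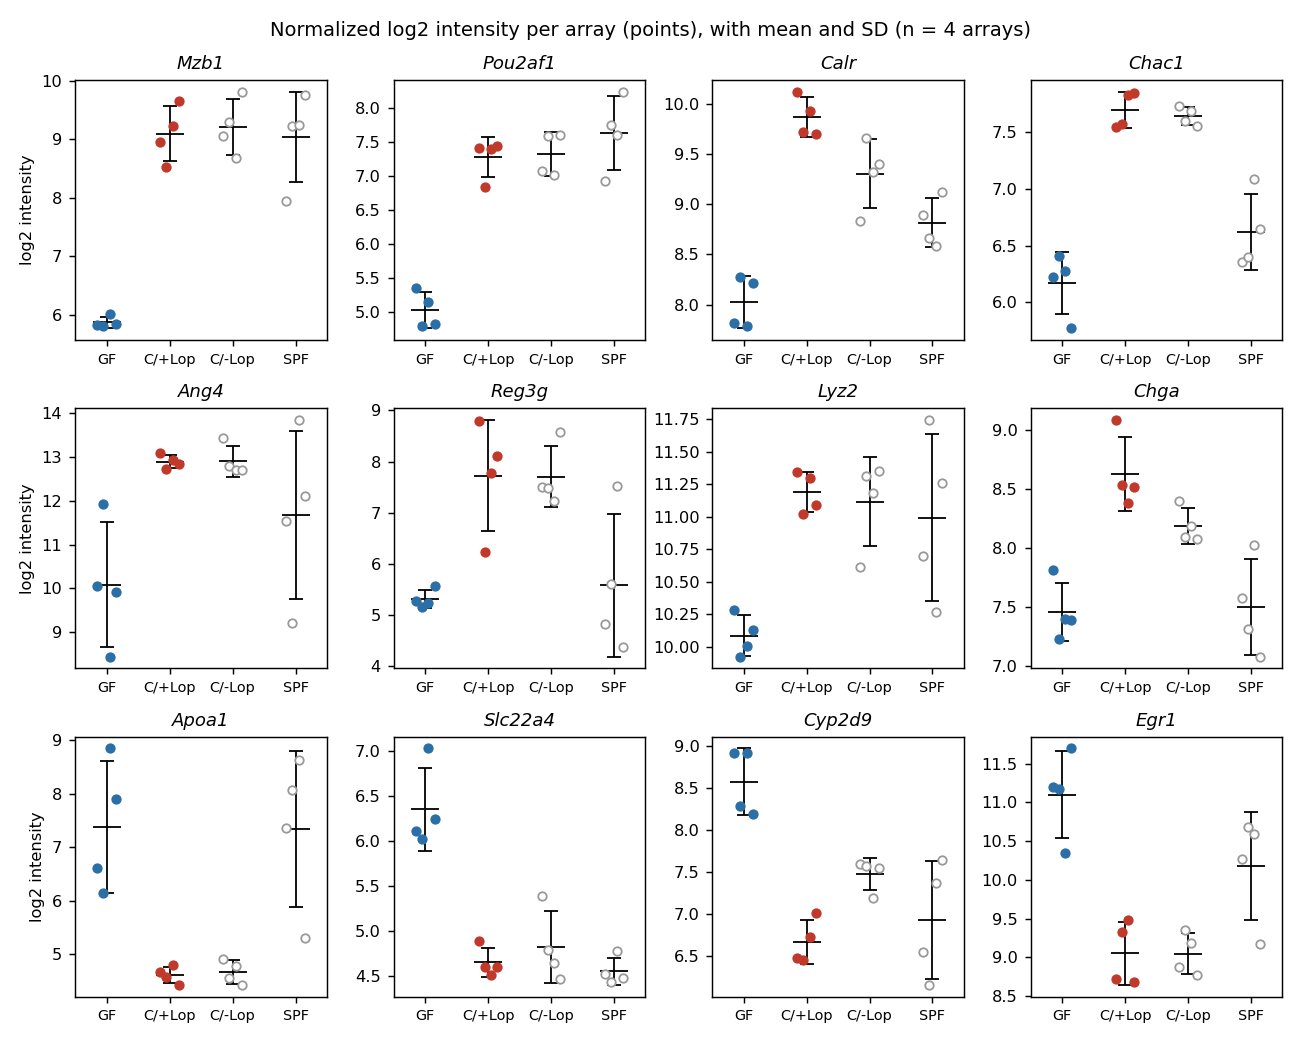
Normalized log2 intensity (vertical axis) of 12 genes on each array (points), with mean and SD of the 4 arrays of a group; GF in blue, C/+Lop in red, and C/-Lop and SPF arrays as open points. In Mzb1, Calr, Chac1 and Lyz2 all C/+Lop points lie above all GF points, and in Apoa1, Slc22a4, Cyp2d9 and Egr1 below them.

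Many genes for folding proteins in the ER and moving them out of it rose. Calr, which encodes calreticulin, a lectin chaperone and calcium store of the ER, was 7.82, 8.28, 7.79 and 8.21 on GF arrays and 10.12, 9.72, 9.93 and 9.70 on C/+Lop arrays, without overlap (difference 1.84, SE 0.18, 3.59-fold, adjusted p = 0.000159). Chac1, a glutathione-degrading enzyme induced by the unfolded protein response, was 6.22, 6.41, 6.27 and 5.77 on GF arrays and 7.54, 7.57, 7.83 and 7.84 on C/+Lop arrays (difference 1.53, SE 0.16, adjusted p = 0.000159). Creld2, an ER stress-inducible disulfide isomerase, rose by 1.15 (SE 0.16, 2.22-fold), from 8.38 to 8.98 on GF arrays to 9.57 to 9.81. Bhlha15, or Mist1, a transcription factor of serous and plasma cells, rose by 1.61 (SE 0.22) and by 0.84 and 1.23 on its other probes. These 4 were the largest of a list of 52 genes of ER folding and export that was put together after the largest changes were seen, so that its counts are a description only. Of its 42 measured members 22 rose, against 3.33% of all genes, and none fell, 41 had a positive difference, and the median was 0.41. They included the isomerases Pdia4 (0.89, SE 0.09) and Pdia6 (0.69), the oxidase Ero1b (0.96, SE 0.12), which recharges them, the chaperones Hsp90b1 (0.46), Hyou1 (0.92) and Dnajc3 (0.37), the prolyl isomerase Fkbp11 (1.11), and the translocon subunits Sec61a1 (0.55), Sec61b (0.74, SE 0.09) and Ssr2 (0.59). The mean level of the 42 genes was 8.98 to 9.35 on GF and 9.65 to 9.79 on C/+Lop arrays. The plasma cell list, which shares Xbp1 and Edem2 with it, separated the groups too, but within groups the levels did not run together. GF replicate 2 had the highest ER level (9.35) and the lowest plasma cell level (6.64). C/+Lop replicate 4 had the lowest ER level of its group (9.65) and the highest plasma cell level (7.71). The part of plasma cells in the ER level was not tested. Hspa5, the chaperone BiP, was undetected on the GF arrays by its single kept probe and had a difference of 0.23 (95% interval -0.07 to 0.54, adjusted p = 0.346). The list held 19 to 23 calls when single arrays were left out, 20 with sex as a covariate and 9 without the Xist-positive arrays, with a median of 0.40 in the last, and 12 with median scaling. Single arrays ended the calls of Pdia6 and Sec61a1 (GF replicate 3, adjusted p = 0.050009 and 0.0512) and of Dnajc3 (C/+Lop replicate 3, 0.0509).

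Many promoters of ER chaperones carry the ER stress response element, a CCAAT box set apart by a fixed gap from CCACG, to which NF-Y and the factors of the unfolded protein response bind. The pattern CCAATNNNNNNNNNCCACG was searched on both strands in the RefSeq promoter windows of GRCm38.p6, which hold 300 bases and, for 74.7% of the genes with a single window, run from 250 bases before the gene's annotated start to 50 after it. It was found in 39 of 32851 windows (0.119%). Of the 42 measured ER genes 35 had a window, matched by symbol, and 7 held the pattern. Calr, Creld2, Dnajc3, Ero1b, Hsp90b1 and Pdia6, which rose, were 6 of them, and Hspa5 was the seventh. Promoters of 4 of these are shown 5′ to 3′ on the strand of the gene, with the pattern in capitals, because they show that it sits on either strand and at differing distances from the start. In these 4 the window begins 250 bases before the annotated start. Calr is at chr8:84846882-84847181 (minus strand), Creld2 at chr15:88819396-88819695 (plus), Hsp90b1 at chr10:86705395-86705694 (minus) and Hspa5 at chr2:34771840-34772139 (plus).
Calr: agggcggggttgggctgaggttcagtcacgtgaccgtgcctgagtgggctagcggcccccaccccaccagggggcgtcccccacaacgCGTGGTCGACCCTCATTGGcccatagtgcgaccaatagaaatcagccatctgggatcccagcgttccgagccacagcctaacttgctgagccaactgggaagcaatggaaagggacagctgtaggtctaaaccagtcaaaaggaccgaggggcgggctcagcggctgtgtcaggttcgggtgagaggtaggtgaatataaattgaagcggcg
Creld2: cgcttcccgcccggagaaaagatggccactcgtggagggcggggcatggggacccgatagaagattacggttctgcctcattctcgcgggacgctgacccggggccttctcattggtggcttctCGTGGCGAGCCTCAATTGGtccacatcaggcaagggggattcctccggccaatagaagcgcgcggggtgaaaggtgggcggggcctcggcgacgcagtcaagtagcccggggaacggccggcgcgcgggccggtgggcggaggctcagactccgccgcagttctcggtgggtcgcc
Hsp90b1: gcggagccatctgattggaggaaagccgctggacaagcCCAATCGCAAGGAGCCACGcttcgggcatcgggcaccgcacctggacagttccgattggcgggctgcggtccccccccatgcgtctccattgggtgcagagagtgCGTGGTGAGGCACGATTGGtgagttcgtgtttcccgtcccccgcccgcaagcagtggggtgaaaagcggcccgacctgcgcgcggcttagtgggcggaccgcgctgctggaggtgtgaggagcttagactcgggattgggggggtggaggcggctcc
Hspa5: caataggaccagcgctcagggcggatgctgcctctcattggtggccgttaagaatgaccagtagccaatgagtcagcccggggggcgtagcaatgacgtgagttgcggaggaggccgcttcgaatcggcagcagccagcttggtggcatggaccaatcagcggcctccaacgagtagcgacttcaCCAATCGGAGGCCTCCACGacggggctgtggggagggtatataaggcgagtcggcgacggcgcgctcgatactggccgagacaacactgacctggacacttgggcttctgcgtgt
In Calr and Creld2 the pattern is read on the strand opposite to the gene and ends 144 and 108 bases before the annotated start, in Hspa5 it is read on the gene's strand and ends 47 bases before it, and Hsp90b1 holds 2 copies, 1 on each strand. A match is a description of letters and not of binding, and the 16 ER genes with a window among those that did not pass held it in 1.

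**Figure D3:**
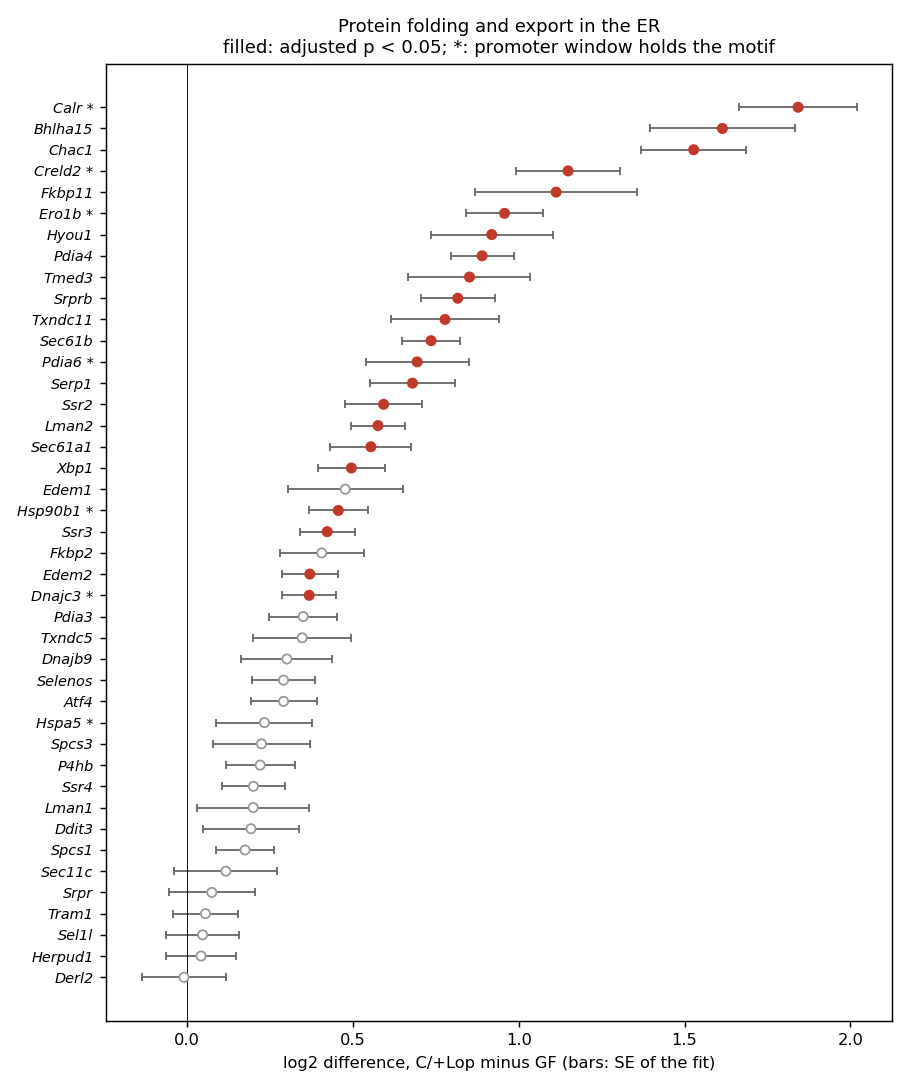
Log2 difference, C/+Lop minus GF (horizontal axis), of the 42 measured genes of ER folding and export, with the SE of the fit as bars; filled points passed at an adjusted p under 0.05 and a star marks a promoter window with the pattern. Calr lies highest at 1.84, and 41 of the 42 points lie above 0.

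Several secreted antimicrobial proteins of the epithelium rose. Reg3g, a lectin that kills Gram-positive bacteria, was 5.28, 5.16, 5.24 and 5.56 on GF arrays and 8.79, 6.23, 7.78 and 8.11 on C/+Lop arrays. All C/+Lop arrays lay above all GF arrays, but over a range of more than 2 log2 units, and the difference was 2.42 (SE 0.58, adjusted p = 0.0218). Its near relative Reg3b was 11.74, 9.77, 10.57 and 11.38 on GF arrays and 14.22, 12.86, 13.94 and 13.79 on C/+Lop arrays, again without overlap, but with a difference of 2.84 (SE 0.86) it did not pass (adjusted p = 0.0583). It passed in a fit of both groups alone (adjusted p = 0.0111), and its other, dimmer probe passed in the full fit with a difference of 1.71 (adjusted p = 0.017). Ang4, an antimicrobial ribonuclease of Paneth and goblet cells, was 10.06, 11.92, 8.45 and 9.92 on GF arrays and 13.09, 12.72, 12.93 and 12.83 on C/+Lop arrays (difference 2.81, SE 0.75, adjusted p = 0.0347), so that its GF arrays spread over more than 3 log2 units and its C/+Lop arrays over less than 1. Wfdc18, a small protein of the whey acidic protein family, rose by 2.20 (SE 0.27, 4.58-fold, adjusted p = 0.00061), and Slpi, a protease inhibitor of the same family with antimicrobial activity, by 1.71 (SE 0.44). Pglyrp1, a peptidoglycan recognition protein, was 11.05 to 11.46 on GF and 11.98 to 12.12 on C/+Lop arrays (difference 0.71, SE 0.11, adjusted p = 0.00368). Of 15 measured genes of antimicrobial and mucosal defence 3 rose (Reg3g, Ang4 and Pglyrp1), against 3.33% of all genes, and none fell, with a median of 0.83. The difference was positive in 10 and negative in 5. Among the latter, Saa1 and Saa2 had differences of -1.12 and -0.65 that did not pass (adjusted p = 0.0725 and 0.0503). All C/+Lop arrays lay below all GF arrays in Saa1 but not in Saa2. Retnlb, a resistin-like molecule of goblet cells, had a difference of 1.03 (95% interval 0.04 to 2.02, adjusted p = 0.188). The call of Ang4 ended without any 1 of the 8 arrays other than GF replicate 2 (adjusted p = 0.0569 to 0.104), that of Reg3g without GF replicate 3 or C/+Lop replicate 1 or 3 (0.0538 to 0.0791), and that of Slpi without GF replicate 1 or 3 or C/+Lop replicate 1, 2 or 3 (0.0587 to 0.0955).

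Goblet cell and mucus genes had a positive difference in 15 of 16 measured members, with a median of 0.46, and 3 rose, against 3.33% of all genes: Fut2 (0.80, SE 0.21), the fucosyltransferase that decorates mucosal glycans, Muc1 (1.12, SE 0.31), a membrane mucin whose groups overlapped, and Spink4 (0.36, SE 0.10), a goblet cell protease inhibitor whose groups overlapped as well. These calls were close to the threshold (adjusted p = 0.0315, 0.0415 and 0.0459), and with single arrays left out the list held 0 to 2. No call of the list was left without GF replicate 1 or 3 or C/+Lop replicate 2 or 3, with the replicate block or with sex as a covariate. Its mean level was 9.40 to 10.24 on GF and 10.27 to 10.41 on C/+Lop arrays. Outside the list, Slc30a10, an epithelial manganese exporter, was 4.65, 4.52, 5.96 and 5.27 on GF arrays and 7.31, 7.58, 7.80 and 8.38 on C/+Lop arrays (difference 2.67, SE 0.45, adjusted p = 0.00434), with detection on 2 of the 4 GF arrays. Ceacam10, a secreted carcinoembryonic antigen-related protein, rose by 1.26 (SE 0.20, adjusted p = 0.0037).

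Of 14 measured macrophage genes 4 rose, against a background of 3.33% higher, and none fell. All 14 had a positive difference, and the median was 0.51. Lyz2, lysozyme of myeloid cells, was 10.28, 9.92, 10.01 and 10.13 on GF arrays and 11.34, 11.02, 11.29 and 11.09 on C/+Lop arrays (difference 1.10, SE 0.24, adjusted p = 0.0154), and by its other probe the difference was 0.49. Cx3cr1, the fractalkine receptor of resident macrophages, rose by 1.19 (SE 0.28, adjusted p = 0.0197), from 5.29 to 6.77 on GF arrays to 7.20 to 7.63. The complement chains C1qb and C1qc, which tissue macrophages make, rose by 0.95 and 0.98 (adjusted p = 0.0326 and 0.021). The list's mean level was 7.50 to 7.93 on GF and 8.28 to 8.55 on C/+Lop arrays, and these did not overlap. Its calls numbered 1 to 4 when single arrays were left out, 1 without GF replicate 3 or C/+Lop replicate 1, 2 without C/+Lop replicate 3, and none without both Xist-positive arrays, where the median was 0.67. The call of Cx3cr1 ended without GF replicate 3 or C/+Lop replicate 1 (adjusted p = 0.0609 to 0.0675), that of C1qc without these or C/+Lop replicate 3 (0.0505 to 0.0691), and that of C1qb without any array but C/+Lop replicate 2 (0.0540 to 0.104). Other myeloid genes rose too, among them Ms4a6d (1.31, SE 0.25, adjusted p = 0.00732), a membrane protein of monocytes and macrophages, Ccl6 (0.98, SE 0.19, adjusted p = 0.0074), a chemokine of myeloid cells and the single call among 18 chemokines and cytokines, and Tlr2 (0.82, SE 0.19, adjusted p = 0.0173), the receptor for bacterial lipoproteins, whose call ended without C/+Lop replicate 3 (adjusted p = 0.0502). Of 14 genes of microbial pattern recognition, Tlr2 alone rose and Tollip, an inhibitor of Toll-like receptor signalling, alone fell, by 0.28, with a difference of -0.02 by its other probe. The call of Tollip ended without any array but C/+Lop replicate 4 (adjusted p = 0.0584 to 0.0989).

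Single lymphocyte genes rose, and no member of the T and NK cell, MHC class II or interferon lists passed. Of all genes 3.33% were higher and 3.86% lower, so that lists of 9 to 20 genes would hold few calls or none. Gimap7, a GTPase of lymphocytes, was detected on no GF array and rose at least 2.33-fold (5.76 to 7.04 on C/+Lop arrays, adjusted p = 0.00451), and Cd69, an early activation and tissue residence marker of lymphocytes, rose by 1.27 (SE 0.23, adjusted p = 0.00635). None of 14 T and NK cell genes passed. Cd3g, a chain of the T cell receptor complex, had the smallest p of them, with a difference of 1.06 (95% interval 0.28 to 1.84, adjusted p = 0.0897) and its highest value, 7.58, on C/+Lop replicate 4, against 6.57 to 6.74 on the other C/+Lop arrays. The median of the list was 0.41, and 0.28 with genes that have only a bound set to it, and it was 0.20 without C/+Lop replicate 4. Of 9 genes of MHC class II antigen presentation none passed, and 5 did not overlap between groups, against 17.4% of all genes, with a median of 0.71. H2-Ab1 and H2-Eb1, the beta chains of class II, had differences of 0.81 (95% interval 0.25 to 1.38) and 0.71 (0.19 to 1.24), and H2-DMb1, a chain of the peptide loading chaperone, one of 0.92 (0.30 to 1.55), with adjusted p = 0.0746, 0.0864 and 0.0672. With sex as a covariate H2-DMb1 passed (1.17, adjusted p = 0.0354). None of 20 interferon-induced genes passed, and their median of 0.44 turned to -0.02 without C/+Lop replicate 4. Irgm2, an interferon-induced GTPase, was 8.83, 8.89, 8.82 and 10.23 on C/+Lop replicates 1 to 4 and 8.43 to 8.97 on GF arrays.

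**Figure D4:**
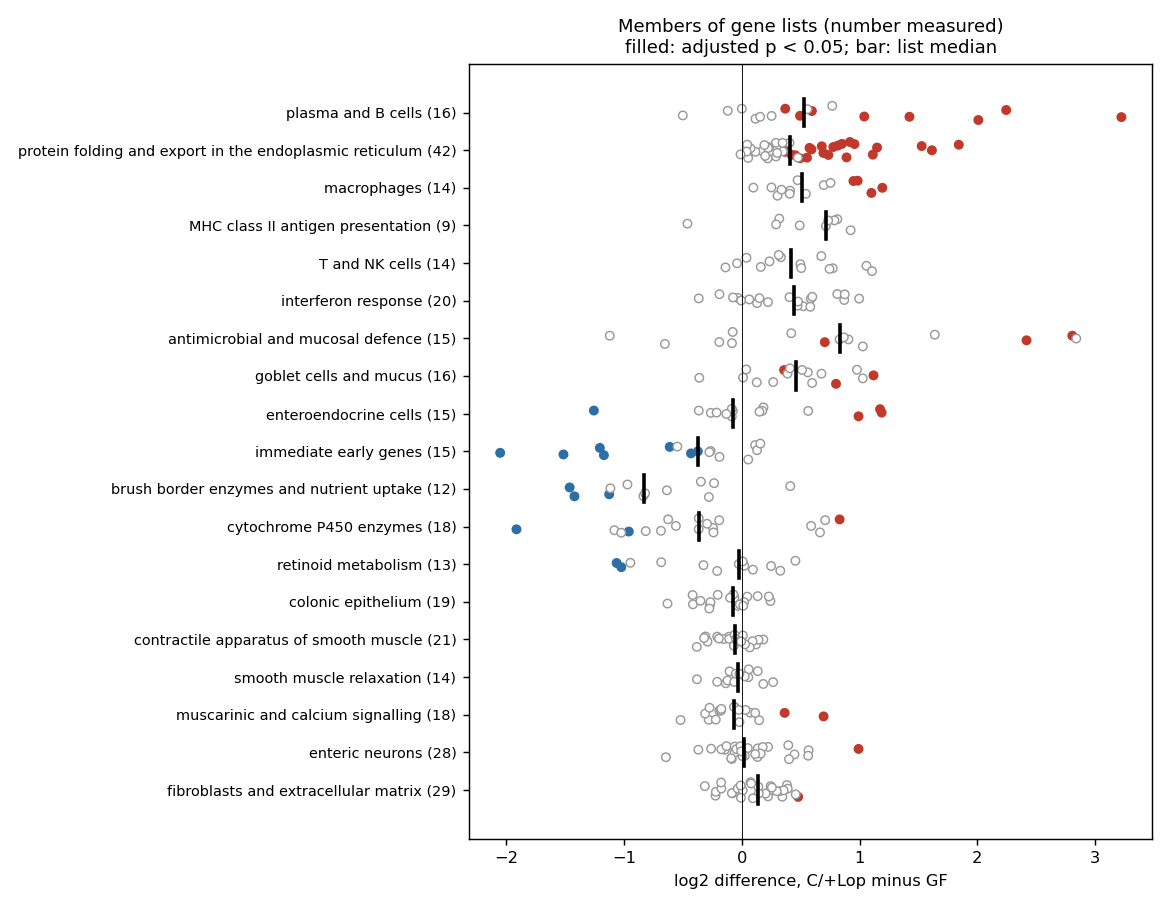
Log2 difference, C/+Lop minus GF (horizontal axis), of each measured member of 19 gene lists (rows, with the number measured); filled points had an adjusted p under 0.05 (limma), red higher and blue lower, and bars are list medians. The medians lie at 0.53 for plasma and B cells and 0.41 for the ER genes, at -0.83 for the brush border, and at -0.06 for the contractile apparatus.

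Several absorption genes of the epithelium fell in recipients of PIC microbiota. Apoa1, the main apolipoprotein of high-density lipoprotein and of chylomicrons, was 6.61, 6.14, 8.85 and 7.91 on GF arrays and was not above background on any C/+Lop array (4.66, 4.57, 4.79 and 4.43), at least 4.82-fold lower (adjusted p = 0.0139). Slc22a4, the ergothioneine and carnitine transporter OCTN1, was 6.11, 6.02, 7.03 and 6.25 on GF arrays and also below detection on all C/+Lop arrays (4.51 to 4.89), at least 2.37-fold lower (adjusted p = 0.000633). Treh, the brush border trehalase, was at least 1.90-fold lower (5.49 to 7.14 on GF and 4.49 to 4.64 on C/+Lop arrays, adjusted p = 0.00451), and Slc6a19, the main transporter of neutral amino acids, at least 1.72-fold lower (5.31 to 6.66 and 4.37 to 4.54, adjusted p = 0.00155). Both were below background on every C/+Lop array. They were detected on all 4 GF arrays and on no array of the other groups. The detection filter thus kept them through the GF arrays alone, which fixed the direction of their differences. Mep1a, a subunit of the brush border protease meprin, fell by 1.12 (SE 0.23, 2.18-fold, adjusted p = 0.0117). Of 12 measured genes of brush border enzymes and nutrient uptake 3 fell (Treh, Slc6a19 and Mep1a), against a background of 3.86% lower, none rose, and 11 had a negative difference. Because the filter fixed their direction, the calls of Treh and Slc6a19 cannot be weighed against that background. Mep1a was detected on all 4 arrays of each group. The median of the list was -0.83, and -0.80 with genes that have only a bound set to it. The mean level was 8.09 to 8.62 on GF and 7.37 to 7.68 on C/+Lop arrays, which did not overlap, while that of the 19 epithelial genes overlapped. With single arrays left out 3 to 5 members fell, 5 of them without GF replicate 2, and 1 without the Xist-positive arrays. None of the 19 epithelial genes passed, and Cdhr5, a protocadherin of the brush border, and Krt20, a keratin of surface colonocytes, had differences of -0.42 and -0.63 (adjusted p = 0.0503 and 0.0775). With median scaling 4 of the 19 fell.

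Single genes of lipid, retinoid and xenobiotic metabolism fell, and others rose. Dgat1, which makes triglyceride, fell by 0.83 (SE 0.20), Rbp2, the retinol carrier of enterocytes, by 1.02 (SE 0.29), and Aldh1a7, an aldehyde dehydrogenase, by 1.06 (SE 0.22, adjusted p = 0.0108). Of 12 genes of apolipoproteins and sterol transport 2 fell (Apoa1 and Dgat1), against 3.86% of all genes, with a median of 0.05. Of 13 retinoid genes 2 fell (Rbp2 and Aldh1a7), with a median of -0.02. The mean level of the retinoid list was 7.09 to 7.27 on GF and 6.86 to 7.05 on C/+Lop arrays, which did not overlap. That of the apolipoprotein list overlapped. Cyp2d9, a cytochrome P450, was 8.91, 8.29, 8.92 and 8.19 on GF arrays and 6.48, 6.46, 6.72 and 7.02 on C/+Lop arrays (difference -1.91, SE 0.27, adjusted p = 0.00197). Its neighbours in the same gene cluster, Cyp2d12 and Cyp2d34, fell by 1.60 (SE 0.37) and 0.96 (SE 0.27), and probes of such near-identical genes may share signal. Of 18 measured P450 genes 2 fell (Cyp2d9 and Cyp2d34), against 3.86% of all genes, 14 had a negative difference and 1 rose, Cyp3a25, which was detected on no GF array and rose at least 1.15-fold. Cyp2d12 was not on that list. Ces1e, a carboxylesterase, fell by 0.97 (SE 0.25), while the glutathione transferases Gstp1 and Gsta3 rose by 0.66 (SE 0.09, adjusted p = 0.000943) and 0.43 (SE 0.13, with 0.05 by its other probe). Clca4a and Clca4b, chloride channel accessory proteins of surface colonocytes, fell by 1.71 (SE 0.40, with -0.89 by the other probe) and 1.98 (SE 0.44). Ch25h, which makes 25-hydroxycholesterol, was 6.60 to 7.60 on GF and 5.13 to 5.74 on C/+Lop arrays and fell by 1.61 (SE 0.25, adjusted p = 0.00277). Rab33a, a small GTPase encoded on the X chromosome, fell by 1.50 (SE 0.18, adjusted p = 0.000472), Ms4a10, a membrane protein of enterocytes, by 1.44 (SE 0.31), and Anxa8, an annexin, by 1.62 (SE 0.44).
Several of these calls were close to the threshold. Those of Cyp2d34, Cyp3a25, Gsta3, Ces1e, Rbp2 and Anxa8 ended in 6 to 8 of the 8 fits that left out 1 array (adjusted p = 0.0511 to 0.141). The call of Cyp2d12 ended without GF replicate 3 or C/+Lop replicate 1 or 2 (adjusted p = 0.0526 to 0.0557), that of Dgat1 without GF replicate 3 or C/+Lop replicate 2 or 3 (0.0554 to 0.0655), and those of Clca4a and Clca4b without GF replicate 3 or C/+Lop replicate 1 (0.0518 to 0.0663).

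Several immediate early genes, which cells switch on within minutes of a stimulus, fell. Egr1, a zinc finger transcription factor, was 11.19, 11.17, 10.35 and 11.70 on GF arrays and 8.72, 9.32, 9.48 and 8.69 on C/+Lop arrays (difference -2.05, SE 0.32, 4.14-fold lower, adjusted p = 0.00336). Fos and Fosb, subunits of the transcription factor AP-1, fell by 1.20 (SE 0.24) and 1.17 (SE 0.19), and Atf3, a stress-induced factor, by 1.51 (SE 0.31), with adjusted p = 0.00982, 0.0037 and 0.0115. The groups did not overlap in any of these 4 genes. Of 15 measured members 7 fell, against 3.86% of all genes, and none rose, the others that fell being Dusp1 (-0.61), a phosphatase of MAP kinases, Klf6 (-0.43), a zinc finger factor, and Zfp36 (-0.37), which destabilizes messenger RNAs, and the median was -0.37. Klf4, Ier3, Egr3 (detected on 1 GF and 2 C/+Lop arrays) and Jun had positive differences of 0.16, 0.13, 0.11 and 0.06. Hbegf, a growth factor induced with them, fell by 1.55 (SE 0.36, adjusted p = 0.0184), but not without C/+Lop replicate 1 (-1.52, adjusted p = 0.0568). The mean level of the list was 8.55 to 8.78 on GF and 8.04 to 8.19 on C/+Lop arrays. With single arrays left out 4 to 6 members fell, 4 without GF replicate 3 or C/+Lop replicate 2, and 2 without the Xist-positive arrays (median -0.25). The calls of Dusp1, Klf6 and Zfp36 each ended in at least 3 of those 8 fits (adjusted p = 0.0593 to 0.132).
The metallothioneins Mt1 and Mt2, which bind zinc and copper, fell by 0.74 (SE 0.19) and 1.34 (SE 0.24). The cold-inducible RNA-binding proteins Cirbp and Rbm3 fell by 1.33 (SE 0.24, adjusted p = 0.00635) and 0.60 (SE 0.17), although the other probe of Rbm3 had a difference of 0.23. Mt1 lost its call without any array but GF replicate 2 or C/+Lop replicate 2 (adjusted p = 0.0585 to 0.0734), and Rbm3 without any but GF replicate 3 (0.0536 to 0.110). Among 15 circadian clock genes the single call was Clock itself, which was lower by 0.33 and had a difference of 0.31 by its other probe. That call ended without GF replicate 2, 3 or 4 or C/+Lop replicate 1 or 3 (adjusted p = 0.0533 to 0.0830).

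Genes of hormone-producing cells of the mucosa changed in both directions. Chga, the chromogranin of secretory granules, was 7.81, 7.23, 7.40 and 7.39 on GF arrays and 9.09, 8.54, 8.38 and 8.51 on C/+Lop arrays (difference 1.17, SE 0.19, adjusted p = 0.0037), and its 2 other probes rose by 0.89 and 0.93. Chgb, a second chromogranin, rose by 0.99 (SE 0.16, adjusted p = 0.00368). Tph1, the enzyme that limits serotonin synthesis in enterochromaffin cells, was 7.30, 6.98, 6.36 and 6.43 on GF arrays and 8.02, 7.99, 8.03 and 7.79 on C/+Lop arrays (difference 1.19, SE 0.27, adjusted p = 0.0168). All C/+Lop arrays of these 3 genes lay above all GF arrays. Cck, which encodes the hormone cholecystokinin, went the other way, from 6.61 to 7.24 on GF arrays to 5.42 to 5.99 on C/+Lop arrays (difference -1.25, SE 0.24, adjusted p = 0.00739). Of 15 enteroendocrine genes these 4 passed, 3 up and 1 down, against 3.33% of all genes higher and 3.86% lower. The median was -0.08, and the hormones Gcg, Pyy, Sst and Insl5 had differences of -0.08, -0.08, 0.56 and -0.13. The call of Tph1 ended without GF replicate 3 (1.05, adjusted p = 0.0543).

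The contractile apparatus of smooth muscle made no call. None of 21 measured genes passed, against 3.33% of all genes higher and 3.86% lower, shares at which 21 genes would hold few calls. None separated the groups, against 17.4% of all genes, and the median was -0.06. Acta2 and Actg2, the smooth muscle actins, were 14.20 to 14.30 and 13.45 to 13.94 on GF arrays and 14.20 to 14.35 and 13.55 to 13.73 on C/+Lop arrays, with differences of 0.01 (95% interval -0.14 to 0.16) and -0.07 (-0.29 to 0.16). Myh11, the smooth muscle myosin heavy chain, was 12.30, 11.81, 12.94 and 12.26 on GF and 12.25, 12.15, 12.27 and 12.57 on C/+Lop arrays (difference -0.02, 95% interval -0.47 to 0.44). The lowest difference of the list was that of vinculin, Vcl, -0.38 (-0.77 to 0.01), followed by calponin, Cnn1, at -0.32 (-0.84 to 0.20) and desmin, Des, at -0.31 (-0.72 to 0.10). GF arrays spread widely here, with a list level of 10.54 on replicate 2 and 11.27 on replicate 3. Without GF replicate 3 the list's median was 0.04 and without GF replicate 2 it was -0.19, and with median scaling 1 member, Vcl, fell (adjusted p = 0.0321).
The receptors that set contraction did not differ detectably either. Chrm3, the M3 receptor for acetylcholine on muscle cells, was 5.38 to 6.10 on GF and 5.34 to 5.58 on C/+Lop arrays (difference -0.27, 95% interval -0.78 to 0.24). Chrm2, the M2 receptor, was above background on none of the GF arrays and 1 of the C/+Lop arrays. Ache, the enzyme that breaks down acetylcholine, had a difference of -0.22 (-0.64 to 0.20). Of 18 genes of muscarinic and calcium signalling 2 rose, against 3.33% of all genes, and none fell. Atp2b1, a calcium pump of the plasma membrane, rose by 0.70 (SE 0.16, adjusted p = 0.0196) and Rock1, a kinase that sensitizes contraction to calcium, by 0.36 (SE 0.11, adjusted p = 0.0493). The call of Atp2b1 ended without GF replicate 1 or 3 or C/+Lop replicate 1 or 3 (adjusted p = 0.0519 to 0.0560), that of Rock1 without any array but GF replicate 2 (0.0502 to 0.137), and both ended with median scaling.
No call was made among 14 genes of smooth muscle relaxation (median -0.03), 5 of the interstitial cells of Cajal (-0.02, with Etv1 at 0.57, 95% interval 0.04 to 1.09) or 3 of enteric glia. Of 28 enteric neuron genes Chgb alone, which endocrine cells share, passed, and the median was 0.02 but -0.28 without GF replicate 2. The short-chain fatty acid receptors Ffar2 and Ffar3 had differences of 0.48 (-0.23 to 1.20) and -0.10 (-0.39 to 0.19), and the serotonin receptor Htr4 one of -0.04 (-0.32 to 0.24), and of 16 genes for microbial metabolites and serotonin Tph1 alone passed.

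**Figure D5:**
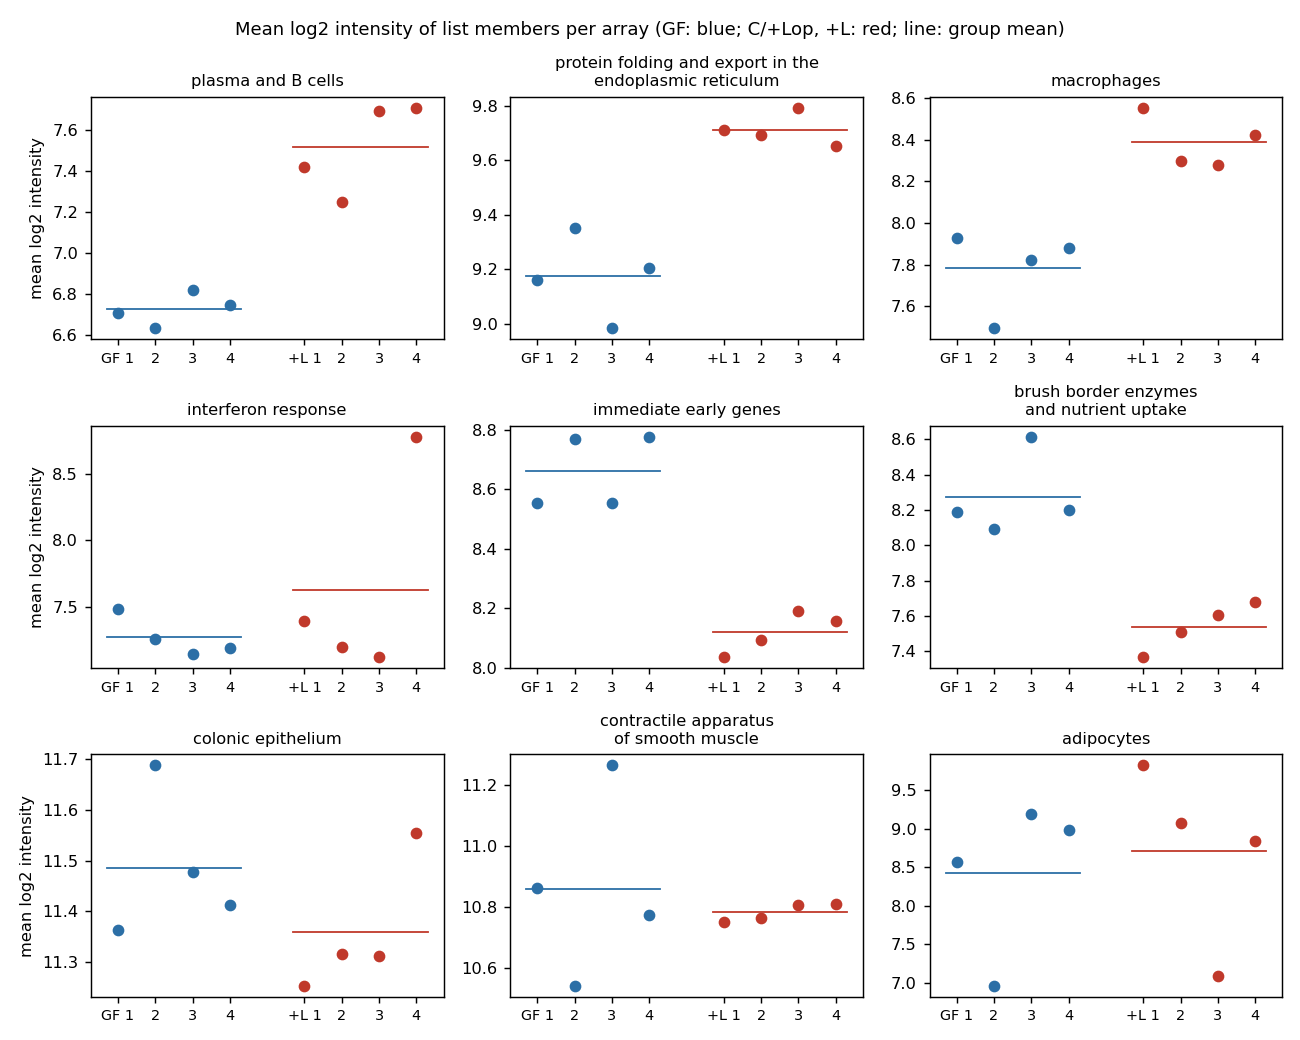
Mean log2 intensity (vertical axis) of the members of 9 gene lists on each GF (blue) and C/+Lop (red, +L) array, by replicate number, with lines at the group means. Plasma cell, ER, macrophage, immediate early and brush border lists separate the groups. Of the arrays drawn, C/+Lop replicate 4 alone is high in the interferon list, at 8.78, and adipocyte levels range from 6.96 to 9.82.

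Markers of other tissues that a strip of colon wall can carry varied between arrays, with calls in the matrix and endothelial lists alone. Adipocyte genes (10 measured) had mean levels of 6.96 to 9.19 on GF and 7.09 to 9.82 on C/+Lop arrays, lowest on GF replicate 2 and C/+Lop replicate 3. Mesothelial genes (4 measured) were 6.16 to 7.07 and 7.03 to 7.71, with Upk3b, a uroplakin, at 4.59 to 6.48 and 6.41 to 8.14 (difference 1.83, SE 0.57, adjusted p = 0.0653). Pancreatic acinar genes (3 measured) were 10.31 on GF replicate 3 and 8.43 to 8.85 on the other 7 arrays, and red cell genes (3 measured) 7.01 to 8.71 and 6.82 to 7.90. Fibroblast and matrix genes were 8.09 to 8.82 and 8.57 to 9.03, and of 29 measured Timp1, an inhibitor of matrix metalloproteinases, alone rose, by 0.48 (SE 0.14, adjusted p = 0.049), a call that ended without any array but GF replicate 4 (adjusted p = 0.0804 to 0.125). Of 19 endothelial genes Ly6c1 alone rose, by 1.11 (SE 0.21, adjusted p = 0.00732). The part of these tissues in the results above was not tested. Oxidative phosphorylation (33 genes), cholesterol synthesis (16) and fatty acid oxidation (16) made no call, and cell cycle genes (24) made none, with a positive difference in 22 and a median of 0.25.

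The C/+Lop arrays differed in sex and the GF arrays did not. With a covariate for whether an array had Xist above 5 or not, limma called 573 probes. Without the Xist-positive C/+Lop arrays, which left 2 arrays in that group, it called 118. All 1000 probes called in the full comparison kept their sign under both. Of 420 kept probes on the X chromosome 22 were called, against 7.09% of all probes, and of 4 on the Y chromosome 0, and the Xist difference itself was 1.11 (adjusted p = 0.305). Of the called genes named here, 19 passed under each of 23 alternatives: Calr, Ch25h, Chac1, Chga, Creld2, Cyp2d9, Egr1, Ero1b, Irf4, Mzb1, Pdia4, Pou2af1, Prg2, Rab33a, Sec61b, Slc22a4, Slc30a10, Tnfrsf17 and Wfdc18. Of single arrays left out, C/+Lop replicate 1 left the fewest calls (451).

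The other groups are set beside these values, and comparisons with GF mice share the same 4 GF arrays. Against GF mice the C/-Lop differences were 3.34 for Mzb1, 1.28 for Calr, 2.39 for Reg3g, 0.73 for Chga and -2.05 for Egr1. Apoa1 was detected on none of the C/-Lop arrays and was at least 4.71-fold lower there than in GF mice, and Slc22a4 was detected on 1 of them. No probe differed between the 2 kinds of recipients at an adjusted p under 0.05 from limma (0 of 14102, 608 at an unadjusted p under 0.05, smallest adjusted p = 0.512). The 95% interval of that difference was -0.80 to 0.57 for Mzb1, 0.03 to 0.85 for Chga, 0.19 to 0.94 for Calr and -1.39 to -0.23 for Cyp2d9. These intervals are not adjusted for the number of genes, and 0 calls do not show that the recipients were alike. Replicates 2 and 3 had Xist above 5 in both kinds of recipients (6.88 and 6.90 in C/-Lop), and replicates 1 and 4 did not. Replicate 4 had the highest level of the interferon list and of the T and NK cell list in both. The comparison did not pair arrays by number, and whether the recipients were paired was not tested.
Compared directly with SPF mice, recipients of PIC microbiota differed in 2083 of 9862 genes (21.1%). None of the 8 plasma and B cell genes called against GF mice passed against SPF mice, and the interval of the difference was -0.63 to 0.73 for Mzb1, -0.86 to 0.15 for Pou2af1 and -0.26 to 0.36 for Prg2. Slc22a4 and Treh were detected on no array of either group. In other genes the PIC recipients differed from SPF mice. Chga, Chgb and Tph1 were higher in PIC recipients than in SPF mice by 1.13, 1.11 and 1.44 (adjusted p = 0.00182, 0.000996 and 0.00278), and in SPF against GF mice they had differences of 0.04, -0.12 and -0.25. Reg3g and Reg3b were higher than in SPF mice by 2.14 and 4.36 (adjusted p = 0.0183 and 0.00389), Calr by 1.05, Chac1 by 1.07 and Sec61b by 0.75 (0.00182, 0.00114 and 0.000338), and Gstp1 and Gsta3 by 0.77 and 1.13 (both 0.000318). Apoa1 was at least 4.71-fold lower than in SPF mice (adjusted p = 0.00639), where SPF and GF mice had a difference of -0.03. Ch25h, Cirbp and Egr1 were lower as well (-1.20, -1.09 and -1.13; adjusted p = 0.00441, 0.00709 and 0.0221). Among muscle genes Myh11 and Des, which did not differ detectably from GF mice, were lower than in SPF mice (-0.90 and -0.93, adjusted p = 0.00931 and 0.00488). SPF mice stood apart from GF mice in other tissue lists as well, with a median difference, SPF minus GF, of 0.62 for the contractile list, 0.70 for the cells of Cajal, 0.81 for matrix, 0.58 for endothelium and -0.39 for epithelium. SPF replicates 2 and 4 lay at 48.1 on the first principal component and the other SPF arrays at 13.6 and 7.00. Without SPF replicates 2 and 4, an alternative chosen after seeing the data that left 2 arrays in that group, Myh11 and Des had differences of -0.55 and -0.58 (adjusted p = 0.141 and 0.0790). The calls of Reg3g (1.55, adjusted p = 0.176), which 2 of the 4 SPF arrays detected, and of Ch25h (-0.98, adjusted p = 0.0642) ended as well, and the other genes compared with SPF mice here that had passed did so again. The part of these tissues in the differences from SPF mice was not tested.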

How the data were processed

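Total RNA from 16 samples, 4 a group, was hybridized to Illumina mouse BeadChips. The authors deposited, per probe and array, the mean bead intensity (not normalized), its standard error, the count of beads and a detection p-value, and a second table of log2 values normalized with limma per the submitters' notes. Their background step and offset were not given in the sources used here. Bead intensities were background-corrected, quantile-normalized and put on the log2 scale with neqc of limma 3.58.1 in R 4.3.3 (offset 16). The deposited log2 values differed from these by at most 0.0251 over 16029 probes, were used as an alternative, and their scale and direction were thereby settled. Kept were 14102 of 25697 probes with a detection p under 0.05 on at least 4 of the 16 arrays. Probes were named through the platform annotation and RefSeq (15091 of 15096 probes in that annotation matched by Entrez ID). Among kept probes 13321 carried a single gene, 781 no name and 0 more than 1 gene.

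A linear model with a mean per group was fitted over all 16 arrays (lmFit and eBayes, 12 residual degrees of freedom), and p-values were adjusted after Benjamini-Hochberg over all kept probes, with calls at an adjusted p under 0.05. A gene is given by its kept probe of highest mean. Named were the 15 genes of largest difference in each direction among those called without overlap, up to 3 genes of smallest p in each of 36 lists, and Chrm2, Chrm3, Ache, Ffar2, Ffar3, Htr4, Acta2, Actg2, Myh11, Xist and Epcam (the last without a kept probe), with further list members chosen after their values were seen. The members and lists were chosen with earlier results of these data known. The fit was tested on simulated data. Alternatives were other background corrections, normalizations and filters, the deposited values, both groups alone, the replicate number as a block, array weights, the methods' t-test, covariates for sex and epithelium, and single arrays left out. The replicate numbers did not pair GF with C/+Lop arrays (correlations of deviations 0.02, -0.06, -0.21 and -0.11 for same-numbered arrays). Pairing of C/-Lop with C/+Lop arrays was not tested. Arrays carry no read depth, and their number limits the precision.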

Additional observations from a re-analysis of the deposited data

Results flagged for a closer look

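Within groups of 4 arrays, the array farthest from the rest was singled out where its gap to the nearest other array, as a share of the group's range, exceeded Dixon's 95% critical value, over 222 gene groups and 74 groups of list levels. Chance alone marks about 1 in 20 such groups, and 14 gene values and 6 list levels were marked. On GF replicate 2, Creld2 was high at 8.98, C1qb and Mt1 were low at 8.20 and 13.7, and the mean levels of the matrix and endothelial lists were low at 8.09 and 7.08. On GF replicate 3, Mzb1 and Fcrla were high at 6.01 and 5.17, Sec61a1 and Wfdc18 low at 8.71 and 5.42, the acinar list high at 10.3 and the pattern recognition list low at 7.12. On C/+Lop replicate 1, Sec61a1 and Wfdc18 were high at 9.82 and 8.88 and Rbp2 was low at 5.73. Pou2af1 (6.84) and the pattern recognition list (7.26) were low on C/+Lop replicate 2, and Aldh1a7 (6.23) was low on C/+Lop replicate 3. On C/+Lop replicate 4, Cd3g (7.58), Irgm2 (10.2) and the interferon list (8.78) were high. The interferon list was high on C/-Lop replicate 4 too (9.29), in a group not screened here. What set these arrays apart was not tested.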

How the results depend on the processing

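All 1000 probes called kept their sign in each alternative in which all were tested, but their number moved. The replicate block left 199 calls (105 higher, 94 lower), 162 of them shared with the comparison as reported, although the numbers did not pair GF with C/+Lop arrays. With the block H2-Ab1, H2-DMb1 and H2-Eb1 passed (adjusted p = 0.0429, 0.0434 and 0.0433). Array weights gave 1971 (995 and 976), the methods' t-test 385 after Benjamini-Hochberg (163 and 222) and 3225 at an unadjusted p under 0.05, sex as a covariate 573 (292 and 281), and leaving out the Xist-positive C/+Lop arrays 118 (60 and 58). With median scaling 143 were higher. Leaving out single arrays gave 451 to 963 calls, 223 to 539 higher and 213 to 449 lower (658 without GF replicate 1, 457 without GF replicate 3, and 451, 596 and 535 without C/+Lop replicates 1, 2 and 3). Without both GF replicate 2 and C/+Lop replicate 4, chosen after seeing the data, 338 were lower. Against SPF mice 1910 to 3296 probes passed with single arrays left out, 1910 without C/+Lop replicate 3, 805 without the Xist-positive arrays, and 987 without SPF replicates 2 and 4 (chosen after seeing the data). The causes were not tested, other than that some alternatives hold fewer arrays. The other alternatives stayed within 1.5 times the reported counts. Of 85 named genes that passed, all kept their sign throughout, 58 passed with sex as a covariate, 28 without the Xist-positive arrays and 53 with the block.
Genes with differences near 0 changed sign. Acta2 was -0.18 with median scaling, -0.031 both with sex as a covariate and without the Xist-positive arrays, -0.0060 with the epithelial covariate, -0.027 as a mean of probes, and -0.016 to 0.033 with arrays left out. Chrm2 was -0.012 with sex, -0.038 without the Xist-positive arrays, -0.10 with the epithelial covariate and -0.016 to 0.23 with arrays left out. Ffar3 was 0.051 with sex and 0.11 without the Xist-positive arrays, and Htr4 0.045 with array weights and -0.12 to 0.015 with arrays left out. Myh11 was 0.020 with cyclic loess, 0.082 without the Xist-positive arrays and -0.28 to 0.19 with arrays left out, and Actg2 -0.18 to 0.019. Probes not above background limit what can be said of low genes.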
